A study of Canis lupus familiaris with 5 samples.

Results

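Low binding sites of human DUX4 in dog muscle cells are described here: the 13879 DUX4 peaks whose pileup was below 12 and whose interval touched no peak of the canine factors DUXC and DUXC-ALT by as much as 1 bp. They were chosen by their pileup and by the positions of the canine peaks, and made up 16.2% of the 85825 peaks in the DUX4 list. Pileup was read as the height of the ChIP-seq signal at the peak's summit, after the authors' scaling. The sites were compared with the 71815 DUX4 peaks of pileup 12 or more, called tall sites below. A further 131 low DUX4 peaks overlapped a canine factor and belong to neither group.

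The series asked how far canine DUXC and its isoform DUXC-ALT act like human DUX4, by chromatin immunoprecipitation and sequencing in an immortalized line of canine myoblasts, the precursors of muscle fibres. It holds 5 libraries in 5 groups of 1: DUX4, DUXC, DUXC-ALT and a pair of luciferase lines. Only the factor libraries have peak lists here. Per the labels, genes were carried on the pCW57.1 vector and induced with 1 µg/ml doxycycline for 24 hours, whereas the luciferase lines are labelled as not inducible. Cells were fixed for 11 minutes in 1% formaldehyde and chromatin was sheared to 150 to 600 bp. The rabbit antiserum was raised to the carboxy-terminal end of human DUX4, and both canine factors carried that end in place of their own. The labels attach "monoclonal" to the DUX4 and DUXC libraries and "polyclonal" to DUXC-ALT without saying clearly whether the line or the antibody is meant. Peak lists hold no expression, so the labelled cell type could not be checked against marker genes. With 1 library per factor no difference has a replicate check, and no p-value is given. Intervals are 95% intervals that cover counting error only, and peaks of 1 library are not replicates.

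DUX4 is a transcription factor with a pair of homeodomains that is active in the early cleavage embryo, where it switches on cleavage-stage genes and retroelements. Its misexpression in skeletal muscle causes facioscapulohumeral muscular dystrophy. In human cells many of its sites lie in long terminal repeats (LTRs) of old endogenous retrovirus-like elements, among them the MaLR group, to which the MLT1 elements belong. LINE-1 (L1) elements are retrotransposons without LTRs. In the dog annotation L1_Canis and L1_Cf are young subfamilies of the dog lineage, L1_Carn are older carnivore subfamilies, and L1M are old subfamilies shared widely among mammals.

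The low sites sat on the bottom steps of the DUX4 list. Pileup took whole multiples of 0.917, so that the members fell on just 7 values. Of the members, 4721 (34.0%) had a pileup of 11.92, 3966 had 11 and 2761 had 10.09. At the lower values there were 1639 sites of 9.17, 635 of 8.25, 154 of 7.34 and 3 of 6.42. The number of sites thus grew with every step up to the limit.

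**Figure D1:**
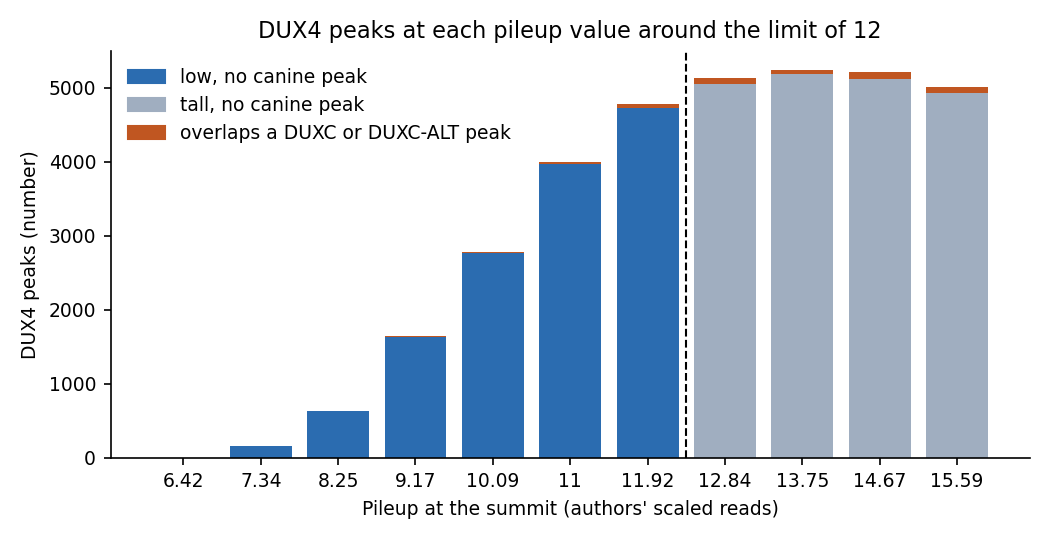
Number of DUX4 peaks at each pileup value (authors' scaled reads at the summit) on both sides of the limit of 12, shown as a dashed line. Bars separate low and tall peaks without a canine peak from those that overlap one. Counts climb from 3 at 6.42 to 4783 at 11.92 and 5129 at 12.84, with no gap at the limit.

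Values on the 2 sides of the limit were close. At 11.92, just inside, the 4783 DUX4 peaks had a median fold enrichment of 6.18, a median −log10 q of 6.37 and a median width of 251 bp. At 12.84, just outside, 5129 peaks had medians of 6.51, 7.26 and 259 bp. Low sites were thus the lower end of a continuous range.

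As the choice by pileup implies, the authors' other measures of strength were low as well. Fold enrichment, the authors' ratio of signal to local background, had a median of 5.34 (range 3.001 to 6.18) at low sites and of 7.93 (1.26 to 60.1) at tall sites. The median −log10 q was 5.48 against 12.6 and the median width 245 bp against 321 bp. These values follow the selection and are not tested. Local background, computed as (pileup + 1) / fold enrichment − 1, was at or near the list's floor of 1.09 for most low sites. It lay within 1.1 times that floor at 77.0% of low sites and at 38.0% of tall sites, and no low site exceeded 3.0. The smallest −log10 q of a low site was 2.03. Pileup depends on the number of DNA copies as well as on binding, and copy number was not analysed here.

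Low DUX4 peaks rarely coincided with a canine peak in the first place, and less often than tall ones for DUXC but not for DUXC-ALT. Of all 14010 DUX4 peaks below 12, 119 (0.849%, 0.704 to 1.02) overlapped a DUXC peak. A DUXC-ALT peak was overlapped by 19 (0.136%, 0.0817 to 0.212), and 7 overlapped both. Among tall sites 3243 (4.52%, 4.37 to 4.67) overlapped DUXC and 83 (0.116%, 0.0921 to 0.143) overlapped DUXC-ALT. The DUXC list has 6031 peaks and the DUXC-ALT list 561.

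Members were also a little farther from canine binding than tall sites that met the same requirement. A DUXC summit lay within 10 kb of 3.45% (3.15 to 3.77) of low sites and of 4.71% (4.55 to 4.87) of the 68527 tall sites without a canine factor. The median distance to the nearest DUXC summit was 181195 bp against 155939 bp. Low sites did not stand apart from other DUX4 binding. Another DUX4 summit lay within 10 kb of 56.9% of low and 54.7% of tall sites, and a tall summit within 10 kb of 49.2% and 48.6% (difference 0.615 points, -0.294 to 1.52).

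The kind of DNA at low sites differed from that at tall sites mainly in which repeats the summits lay in. A summit was assigned to a repeat when it lay inside the 1 repeat that the authors recorded for the peak. Any repeat held 42.6% of low and 48.3% of tall summits, a difference of -5.72 percentage points (-6.62 to -4.82). LTRs alone differed by about as much. They held 923 low summits (6.65%, 6.24 to 7.08) and 8988 tall summits (12.5%, 12.3 to 12.8), a difference of -5.87 points (-6.34 to -5.38).

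Within the LTRs, the shortfall was carried by the MaLR group. MLT1 elements held 597 low summits (4.30%) and 6681 tall ones (9.30%), a difference of -5.002 points (-5.39 to -4.59). ERVL elements, another family of endogenous retrovirus-like repeats, held 1.28% against 2.01% (-0.734 points, -0.937 to -0.510). Of these, MER21B and MER21C together held 38 low summits (0.274%) and 385 tall ones (0.536%). Part of that gap follows from the choice of sites, since low sites exclude canine overlaps and tall sites do not. Among tall sites without a canine factor these elements held 285 summits (0.416%, 0.369 to 0.467). For ERV1 the shares were 0.922% and 1.04%, and the interval of the difference included 0 (-0.280 to 0.0722).

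LINEs as a class showed no such gap, with opposite differences inside it. LINEs held 28.0% of low and 28.1% of tall summits (-0.0869 points, -0.898 to 0.734; with a pileup limit of 15, -1.22 points, -1.85 to -0.582), and the L1 family 24.9% and 24.7%. Young dog L1 (L1_Canis and L1_Cf) held 608 low summits (4.38%) and 6602 tall ones (9.19%), a difference of -4.81 points (-5.20 to -4.40). Carnivore L1_Carn elements held 837 low summits (6.03%) and 2405 tall ones (3.35%), a difference of 2.68 points (2.28 to 3.11). Old L1M elements held 1589 (11.4%) and 5626 (7.83%), a difference of 3.61 points (3.06 to 4.19). Low sites thus lay less often in young dog L1 and more often in older L1 than tall sites did. The L2 family of LINEs held 2.41% of low and 2.84% of tall summits (-0.434 points, -0.706 to -0.140).

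By summit, other repeat classes were close to equal. SINEs, short non-coding retrotransposons, held 5.01% of low and 5.13% of tall summits, and the difference of -0.121 points had an interval from -0.508 to 0.287. Among them MIR elements, old mammalian SINEs, held 2.51% and 2.39%, and the carnivore SINEC elements 2.42% and 2.71%. In tall sites without a canine factor the SINEC share was 2.42%, as in low sites. DNA transposons held 2.28% and 2.09%. When any overlap of the peak was counted, SINEs were recorded at 13.2% of low and 15.1% of tall sites (-1.96 points, -2.57 to -1.33). Part of this too follows from the choice of sites, as the share was 14.2% (13.98 to 14.5) in tall sites without a canine factor.

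Much the same ordering appeared among single subfamilies, with exceptions among L1M given below. Low sites were 16.2% (15.9 to 16.4) of all low and tall sites together and 17.7% of those outside repeats. Of 43 subfamilies with 200 or more summits, 16 had a low share below the overall one and 10 a share above it, with an interval that left the overall share out. All 11 LTR subfamilies were below, 9 of them with such an interval. Among 22 LINE subfamilies 4 were below and 10 above by that criterion.

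At the bottom stood MLT1 subfamilies, with 3.98% low sites in MLT1E1A, 5.30% in MLT1F2, 6.61% in MLT1D and 6.87% in MLT1E2. The young SINE SINEC_Cf followed with 7.17%, then MLT1B with 7.40% and MLT1L with 7.75%. L1_Canis1, the subfamily with the most summits, had 528 low sites among 6738 (7.84%, 7.21 to 8.51). At the top stood L1_Carn3, with 328 low sites among 1157 (28.3%, 25.8 to 31.0), L1_Carn5 with 27.5% and L1_Carn7 with 26.5%. They were followed by L1MA9 with 25.6%, L1ME1 with 24.0%, L1MEc with 23.9%, L1M5 with 23.3% and L1MB7 with 22.6%. Between these ends the dog and canid L1 subfamilies ran from 9.23% in L1_Canid_ over 11.3% in L1_Canis2 to 14.4% in L1_Canid2, while L1_Carn2 had 20.8%. Not every L1M subfamily was high. L1MC4 had 14.6% (12.1 to 17.5) of 684 sites, L1MC4a 17.2% and L1MC5a 17.5%, each with an interval that included the share in all sites.

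**Figure D2:**
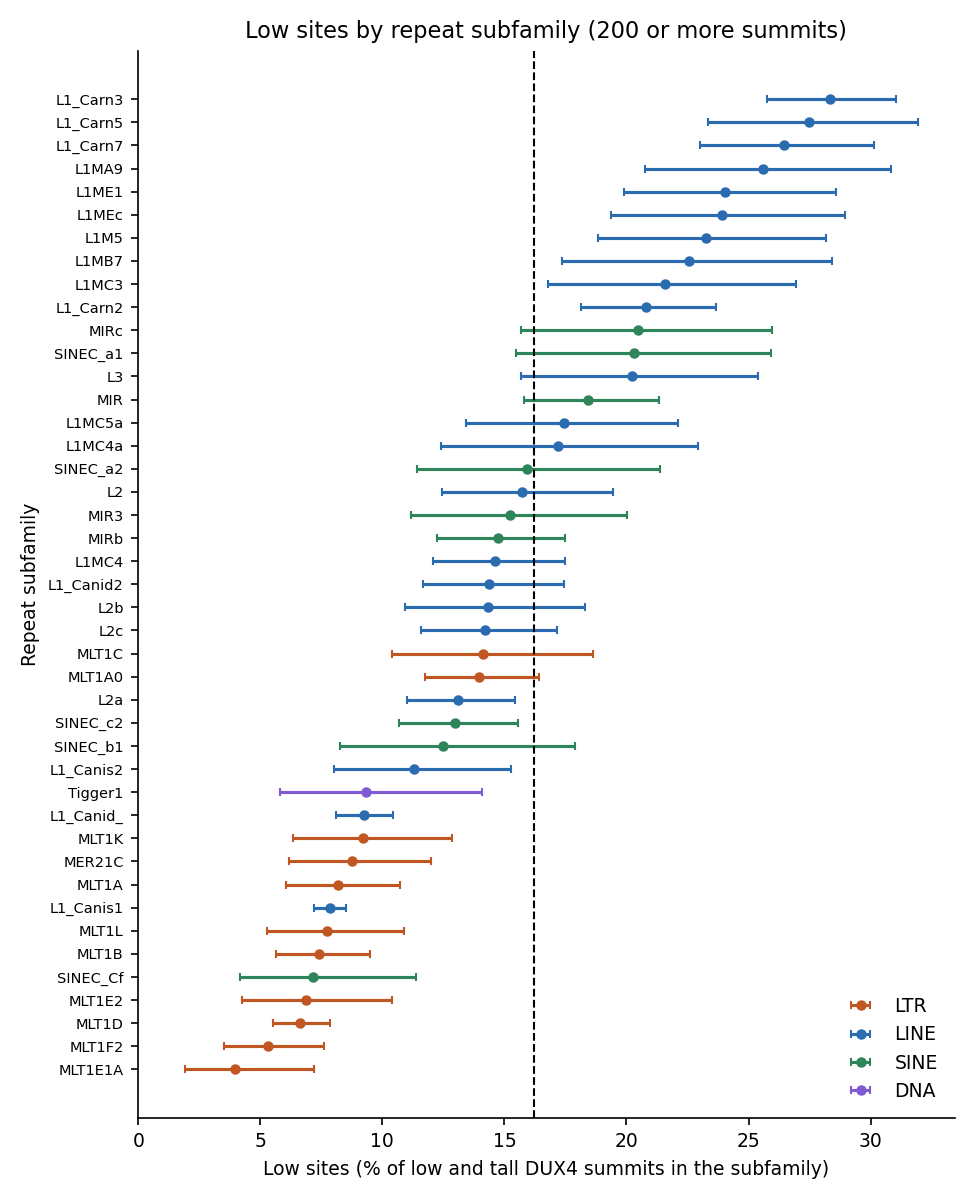
Share of low sites among low and tall DUX4 summits in each repeat subfamily with 200 or more summits, in percent, with exact 95% intervals and colours for the repeat class. The dashed line is the overall share of 16.2%. LTR subfamilies lie on its left, from 3.98% in MLT1E1A, and L1_Carn and several L1M subfamilies on its right, up to 28.3% in L1_Carn3.

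These repeats changed by degrees with pileup, without a step at the limit. Among DUX4 peaks without a canine factor, MLT1 held 2.55% (1.961 to 3.26) of summits at pileup 6.42 to 9.17 and 5.08% (4.47 to 5.75) at 11.92. Above the limit it held 6.06% (5.60 to 6.54) at 12.84 to 13.75 and 20.2% (18.9 to 21.5) at 35.76 to 397.95. L1_Carn went the other way, from 7.20% in the lowest bin over 5.80% at 11.92 to 1.51% in the highest. L1M had 11.97%, 11.2% and 5.82% in the same bins. Young dog L1 was at 3.41% in the lowest bin, 4.94% at 11.92 and 4.44% just above the limit. It was most frequent at 25.67 to 34.84, with 14.3%, and lower at the top, with 8.12%. Its share was thus highest in the bin below the top, whereas that of MLT1 was highest in the top bin. LINEs as a class were not even over pileup. They held 27.4% in the lowest bin, 26.4% just above the limit, 31.4% at 20.17 to 24.76 and 21.4% in the top bin.

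**Figure D3:**
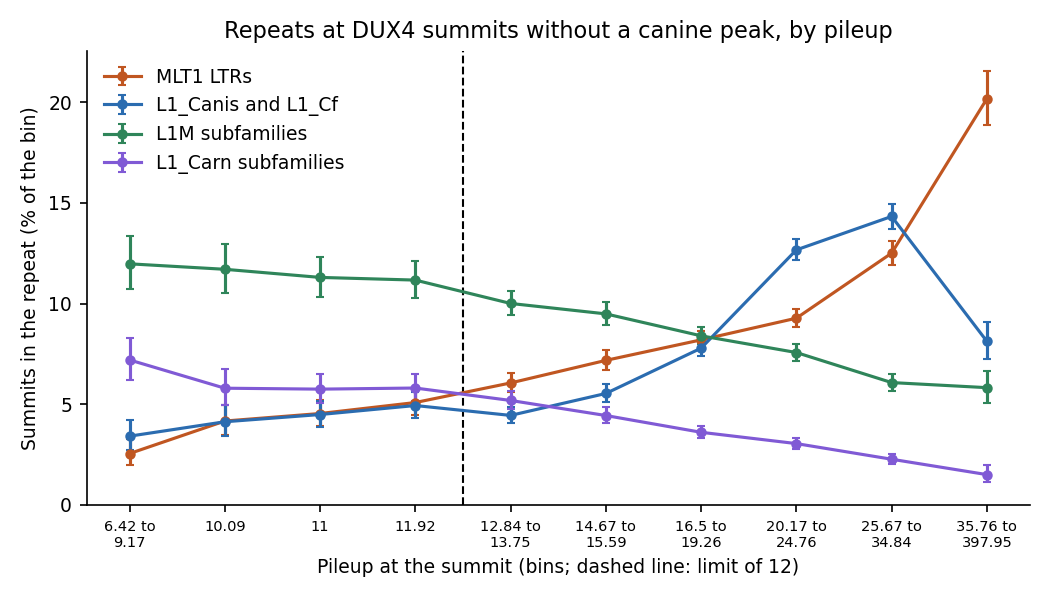
Share of DUX4 summits without a canine peak that lie in MLT1, young dog L1 (L1_Canis and L1_Cf), L1M and L1_Carn elements, in percent with exact 95% intervals, in 10 bins of pileup. The dashed line marks the limit of 12. From left to right MLT1 goes from 2.55% to 20.2% and L1_Carn from 7.20% to 1.51%.

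Local background was higher in the repeats with few low sites than in those with many. Its median was 1.57 over the low and tall sites in MLT1 and 1.58 in young dog L1, but 1.13 in L1M and 1.09 in L1_Carn. Among sites within 1.1 times the floor the LTR shares were 6.13% of 10683 low and 9.54% of 27265 tall sites, a difference of -3.41 points (-3.97 to -2.83). That is smaller than the difference over all sites, by more than 1.5 times, and in the same direction. In that subset MLT1 differed by -2.83 points, young dog L1 by -2.02, L1_Carn by 1.55 and L1M by 2.48, each with an interval that left out 0. The restriction was chosen after the data were seen. Copies of young repeats resemble each other closely, and how reads that map to several copies were handled is not given in the sources used here, so counts in single subfamilies are uncertain.

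In MLT1 copies both groups had most summits in the same stretch, but low summits were less concentrated there. Subfamilies whose names have more than a letter and a digit after MLT1, such as MLT1E1A, were left out. In copies of 300 to 450 bp the summit lay a median of 106 bp from the 5′ end at 295 low sites (quartiles 77.5 and 149) and of 100 bp at 2816 tall sites (74 and 127). The stretch from 20% to 30% of the copy held 30.2% (24.99 to 35.8) of low and 38.0% (36.2 to 39.8) of tall summits. From 30% to 40% it held 25.1% and 23.7%. In MLT1D copies of that length the medians were 132 bp (41 low sites) and 96 bp (565 tall sites), whereas in MLT1A to MLT1B they were 98 bp (183) and 100 bp (1599). The summit of a low peak lay a median of 29 bp from the peak's centre, against 18.5 bp for a tall peak.

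**Figure D4:**
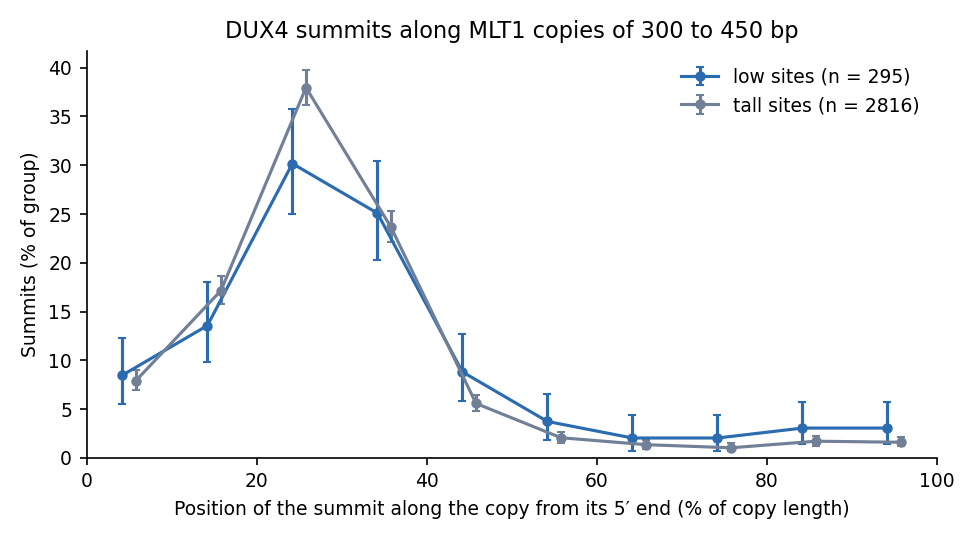
Position of DUX4 summits along MLT1 copies of 300 to 450 bp, as a percentage of the copy's length from its 5′ end, for 295 low and 2816 tall sites. Points are shares of each group in 10 equal stretches of the copy with exact 95% intervals. Subfamilies with longer names, such as MLT1E1A, are left out. Both groups are highest between 20% and 30%, with 30.2% of low and 38.0% of tall summits.

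Relative to genes, low sites were spread much like tall ones. Distal intergenic DNA held 57.1% of low and 56.7% of tall sites (difference 0.427 points, -0.474 to 1.32). Introns held 33.8% and 33.1% (0.704 points, -0.151 to 1.57), exons 1.92% and 1.82%, and 3′ untranslated regions 0.497% and 0.494%. Across the 10 bins of pileup the distal share stayed between 56.0% and 58.3%. Among sites near the background floor distal DNA held 56.7% of low and 55.4% of tall sites, a difference of 1.23 points (0.119 to 2.34) whose interval left out 0. Differences in these broad classes were thus small.

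Promoters held slightly fewer low sites. Within 3 kb of a transcription start site (TSS), by the authors' annotation, lay 827 low sites (5.96%) and 7.05% of tall sites, a difference of -1.10 points (-1.52 to -0.649). Within 5 kb were 1416 low sites (10.2%) and 11.53% of tall sites (-1.33 points, -1.88 to -0.767). Within 50 kb were 59.6% and 64.0% (-4.42 points, -5.31 to -3.54). At the far end, 21.1% of low and 17.4% of tall sites were more than 100 kb from any TSS (3.72 points, 2.996 to 4.46). The median distance was 36609 bp (quartiles 13882.5 and 85831.5) for low and 31670 bp for tall sites. Sites upstream of their TSS made up 45.8% of low and 46.5% of tall sites.

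Read by distance, the share of low sites was lowest near genes. It was 14.1% (12.5 to 15.7) within 1 kb of a TSS, 14.7% from 1 to 5 kb and 14.2% from 5 to 10 kb. From there it went over 15.7% at 10 to 50 kb, 16.7% at 50 to 100 kb and 18.4% at 100 to 250 kb to 21.6% (20.1 to 23.1) beyond. Median local background over the same bins was 1.35 within each bin up to 50 kb, then 1.28, 1.19 and 1.13. Among sites near the background floor, the difference within 5 kb was -0.689 points (-1.36 to -0.00309) and within 50 kb -2.25 points (-3.35 to -1.15).

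The share of low sites differed widely between chromosomes. Low sites made up 9.06% (7.499 to 10.8) of the sites on chromosome 26, 9.28% on chromosome 24, 10.7% on chromosome 20, 10.9% on chromosome 9 and 11.97% on chromosome 28. They made up 25.6% (23.3 to 28.1) on chromosome 32, 25.4% on chromosome 12, 24.0% on chromosome 19, 23.0% on chromosome 11 and 22.5% on chromosome 22. Of 39 chromosomes, 14 were below and 10 above the overall share with an interval that left it out. On chromosome X, 717 sites were low and 4881 tall (12.8% low), so it held 5.17% of low and 6.80% of tall sites (-1.63 points, -2.03 to -1.21).

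At the ends of that order the density of low sites differed more than that of tall sites. Chromosome 32 had 8.94 low and 25.9 tall sites per Mb, and chromosome 26 had 2.80 low and 28.1 tall sites per Mb. Some chromosomes were even along their length: the 10 Mb windows of chromosome 32 ran from 23.3% to 28.8% and those of chromosome 24 from 6.85% to 10.49%. Others were mixed, with 6.59% to 23.4% on chromosome 31. The widest contrast was between 4.52% at 70 to 80 Mb of chromosome 8 and 32.3% at 20 to 30 Mb of chromosome 12.

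The chromosome's local background moved closely with this share. Its median over the DUX4 peaks was 1.67 on chromosome 26 and 1.58 on chromosome 24, and 1.09 on chromosomes 32, 12, 19, 11 and 22. Across the 39 chromosomes the low share had a Spearman correlation of -0.980 with that median and -0.885 with the median pileup of tall sites. With values of the separate DUXC library the correlations were -0.816 for peaks per Mb, -0.783 for median local background and -0.663 for median pileup. These are descriptions. Pileup enters the share and the height alike, and all the DUX4 values share a cell line, library and depth. The copy number of the chromosomes was not analysed here. A low pileup over a high background also gives a low fold enrichment, and no low site had a background above 3.0. Share and background can thus be linked through which peaks were called, and how far was not tested. The share of sites near the background floor ran from 19.1% on chromosome 26 to 72.4% on chromosome 32. Among those sites alone the low share was 28.2% in all and ran from 22.0% on chromosome 20 to 32.5% on chromosome 38, with 23.9% on chromosome 26 and 31.8% on chromosome 32. In that subset 2 chromosomes were below and 3 above the share in all by the same criterion. The low minus tall difference for chromosome X was then -0.336 points (-0.775 to 0.124). The part of local background in the chromosome pattern was not tested beyond this restriction.

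**Figure D5:**
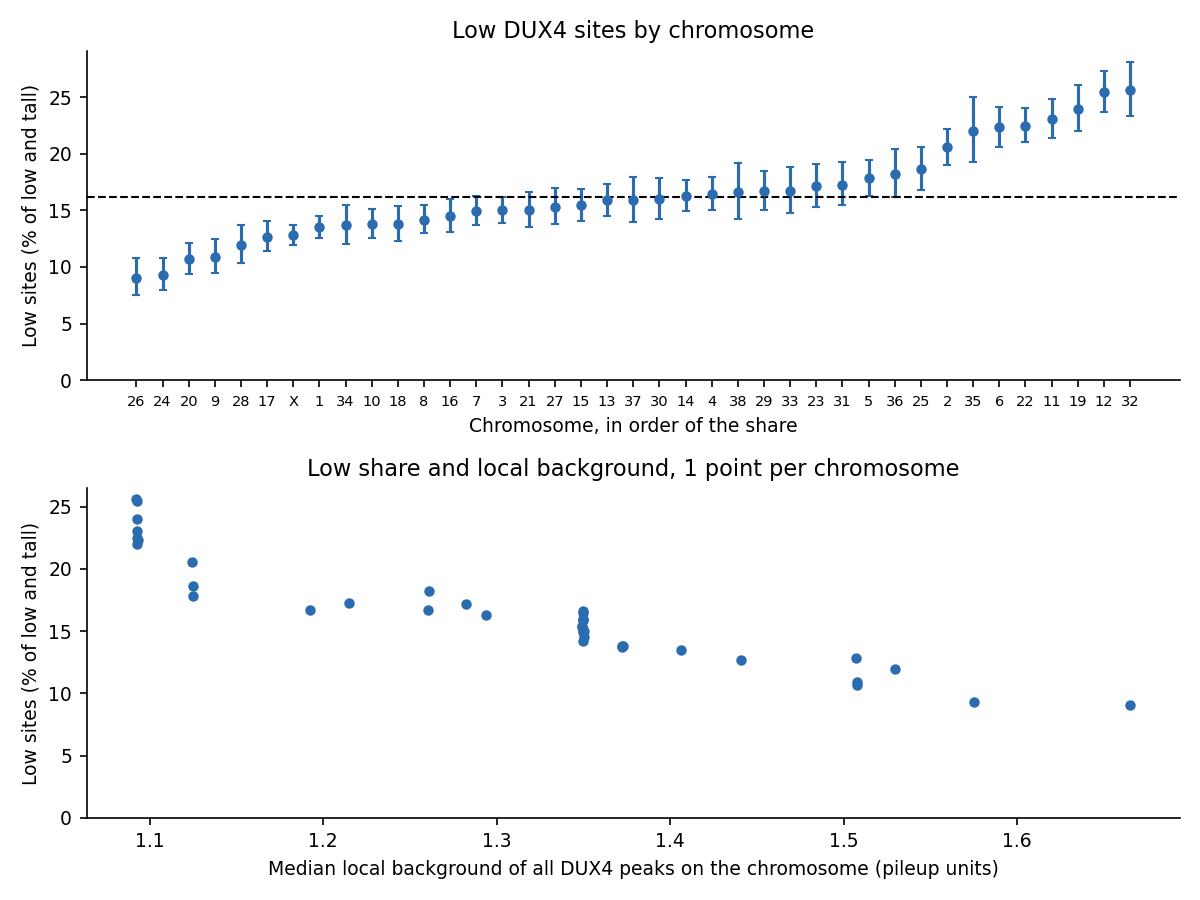
Top, share of low sites among low and tall DUX4 sites on each chromosome, in percent with exact 95% intervals, in order of the share; the dashed line is the overall 16.2%. Bottom, the same share against the median local background of the chromosome's DUX4 peaks in pileup units, 1 point per chromosome. Shares run from 9.06% on chromosome 26 to 25.6% on chromosome 32, and chromosomes of high background have low shares.

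The repeat differences held inside chromosomes. On each of the 39 chromosomes LTRs, MLT1 and young dog L1 each held a smaller share of low than of tall summits. L1M held a larger share of low summits on all 39 and L1_Carn on 38. The share within 50 kb of a TSS was smaller for low sites on 35 chromosomes and that within 5 kb on 26. With low sites weighted to the chromosome makeup of tall sites, LTRs held 6.52% of low summits and young dog L1 4.55%.

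Genes near low sites were counted from the 10343 genes that had a name of their own, and the nearest gene had such a name at 5413 low sites (39.0%). A low site lay within 5 kb of a TSS of 666 named genes (6.44%), and a tall site within 5 kb of 3385 (32.7%). Both lay within 5 kb at 183 genes, which are 27.5% of the former and 5.41% of the latter. A further 483 genes had a low site and no tall site in that range. Within 1 kb the counts were 116 genes (1.12%) for low and 740 (7.15%) for tall sites, and within 50 kb 2909 (28.1%) and 9307 (90%). There are about 5 tall sites to each low site, so the counts do not compare the groups' preference for genes.

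A low peak reached the TSS itself at 27 sites, and 9 of them had a named gene. The highest of these was at C12orf4 (canFam3 chr27:40341748-40341975, fold enrichment 6.18). Next came TEX11, a meiotic gene needed for crossing over in male germ cells (chrX:55252472-55252739), and AHCTF1, a nucleoporin that seeds nuclear pore assembly (chr7:37614180-37614412), each with 5.74. At 4.86 stood USP1, the deubiquitinase of the Fanconi pathway, the mitochondrial carrier SLC25A30, CCDC107, PRTG, a cell surface protein of the immunoglobulin superfamily, and TFG, which acts at endoplasmic reticulum exit sites. LUZP2, a leucine zipper protein, had 4.27. Of the 9, the site at SLC25A30 (chr22:5660937-5661233) was the 1 with its summit in a repeat, an MLT1F2 element.

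The highest fold enrichment among low sites, 6.18, was shared by 2549 of them, 977 with a named gene, so it singles out none. In order of width the first was a 950 bp peak 163 bp upstream of CNGB3 (chr29:32893240-32894189), a subunit of the cone photoreceptor channel. It was followed by sites in intergenic DNA 17261 bp upstream of SLCO4C1, an organic anion transporter, 78421 bp upstream of HNMT, which inactivates histamine, and 84054 bp upstream of C1orf87. Intronic sites followed nearest to USP50, NDUFA12, a subunit of respiratory complex I, and C2CD5. The last were an intergenic site nearest to SEL1L2, an intronic one nearest to DCHS2, a large cadherin, and an intergenic one nearest to GRIA2, an AMPA glutamate receptor subunit. Of these 10 summits 4 lay in a repeat, L1MC1 near SLCO4C1, L1MC4a near HNMT, L1MB1 near DCHS2 and SINEC_b2 near GRIA2.

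Genes that were nearest to the most low sites were nearest to many tall sites as well. POU3F4, a POU homeodomain factor of the inner ear and brain, was nearest to 14 low sites among 60 DUX4 peaks. The protocadherins PCDH17 and PCDH9, adhesion proteins of neurons, had 13 of 39 and 13 of 45. CCNH, the cyclin of the CDK-activating kinase, and ZFPM2, a cofactor of GATA factors, had 10 of 28 each. CDH10, a neuronal cadherin, had 9 of 19, the collagen gene COL11A1 9 of 21 and the ephrin receptor EPHA7 9 of 29. SNTG1, a syntrophin, had 8 of 22 and ANXA10, an annexin, 8 of 24.

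Low sites, 16.2% of all low and tall sites, were seldom the majority at a gene. Of 995 named genes with 8 or more DUX4 peaks, 172 had no low site, and at 4 genes low sites outnumbered tall ones. Given here are 9 of the 10 genes with the highest shares. HDX, a homeobox gene, had 5 low sites of 9, and DLG2, a scaffold of the synapse, and SLC39A12, a zinc transporter, had 6 of 11 each. NPFFR2, a neuropeptide receptor, had 6 of 12. COL14A1, DLC1 and TEX9 had 5 of 10 each, and ADAM10, a membrane protease, and COL21A1 had 4 of 8 each. With so few peaks per gene, these shares have wide counting error and the genes were chosen for them.

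Gene lists that bear on DUX4 and on muscle were counted against the 6.44% of named genes with a low site within 5 kb and the 32.7% with a tall one. Of 17 DUX4 target and cleavage-stage genes, 2 had a low site within 5 kb and 8 a tall one. The former were EIF1AX, a translation initiation factor, with a site 4851 bp upstream (chrX:16075886-16076117, fold enrichment 5.74), and KDM4E, a histone demethylase and known human DUX4 target, with a site 2087 bp downstream of its start (chr21:6002057-6002352, 4.31). Of the 63 DUX4 peaks nearest to genes of this list 4 were low (6.35%) and 59 tall, beside 16.2% low among all low and tall sites. In the lists below the same share was 16.7% for myogenic regulators and 13.9% for sarcomere and muscle membrane genes. It was 18.5% for the neuronal list, 10% for the ribosomal one and 21.3% for pluripotency and germline genes.

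Of 20 sarcomere and muscle membrane genes, 3 had a low site within 5 kb and 4 a tall one. MYH1, a fast myosin heavy chain, had a site 1534 bp upstream (chr5:34820475-34820748, fold enrichment 5.77). NEB, the thin filament protein nebulin, had one 3890 bp upstream, annotated in intron 4 of a transcript (chr19:52902094-52902318, 5.45). ACTN2, the Z-disc actinin, had one 4041 bp upstream (chr4:3419165-3419389, 5.30). The ACTN2 site lay in an L1_Canis1 element and was annotated in intron 1 of a transcript. None of these 3 genes had a tall site within 5 kb. Of 20 myogenic regulators and satellite cell genes, none had a low site within 5 kb and 7 had a tall one.

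The neuronal adhesion, synapse and axon guidance list was counted within 50 kb as well. Of its 40 genes, 3 had a low site within 5 kb and 11 a tall one, while within 50 kb 21 had a low site and 40 a tall one, beside 28.1% and 90% of all named genes. The 3 were PTPRD, a synaptic receptor phosphatase, with a site 1888 bp upstream (chr11:29503488-29503762, fold enrichment 6.08), CSMD3, a large transmembrane protein, with one 498 bp downstream (chr13:13569076-13569300, 4.86), and PCDH9, with one 4026 bp upstream (chr22:22214934-22215158, 3.98). Of the 22 ribosomal, translation and splicing genes, none had a low site within 5 kb and 11 had a tall one. Of the 16 pluripotency and germline genes, none had a low site within 5 kb and 1 had a tall one, but 6 had a low site within 50 kb. In that range 2 of 17 DUX4 target genes and 4 of 22 ribosomal, translation and splicing genes had a low site. So did 6 of 20 myogenic regulators and 4 of 20 sarcomere and muscle membrane genes. All 17 DUX4 target genes and all 22 ribosomal, translation and splicing genes had a tall site there. The lists were chosen with earlier results of these data known, so nothing is called particular to a list.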

How the data were processed

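ChIP-seq peaks of 3 libraries were analysed (DUX4, DUXC, DUXC-ALT; 1 each). The build is canFam3, and the tools listed are MACS2 2.1.0, BWA 0.7.10 and CASAVA, per the submitters' processing notes, which give no role. The control library, the calling threshold and filters are not given in the sources used here, and the number of reads is unknown. The authors deposited each peak's position, pileup (a signal height), fold enrichment (a ratio), −log10 p-value and −log10 q-value, nearest gene, annotation, distance to the TSS in bp and at most 1 repeat.

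Tables were handled in pandas 2.3.3 under Python 3.11.15, with scipy 1.17.1 for intervals, numpy 2.4.6 for overlaps and matplotlib 3.10.9 for plots. The overlap code was tested on simulated data. All 13879 members were kept. Shares have exact Clopper-Pearson and differences Newcombe 95% intervals. Members and gene lists were chosen with earlier results of these data known. Gene names come from the lists. Of 21684 gene IDs, 10343 had a name used by no other ID and, where the reference table of dog genes (UU_Cfam_GSD_1.0) holds it, on the same chromosome there. Named were the 10 named members of highest fold enrichment, those covering a TSS, the genes nearest to the most members or with the highest share of them, and up to 3 genes per list. Of the genes so chosen, 1 is not reported here. Ties were ordered by −log10 q, then width, a choice made after the values were seen. No sequence is shown, and a genome was not used here.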

Additional observations from a re-analysis of the deposited data

How the results depend on the processing

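The 7 results (the number of low sites, that of named genes with a low site within 5 kb, and the differences, low minus tall, in distal, TSS within 5 kb, LINE, LTR and chromosome X shares) were recomputed under 60 alternatives. In 43 they stayed within the interval as reported, or within 1.5 times the count, and in 17 they moved. None that differed from 0 reversed. With a pileup limit of 10 there were 2431 low sites and 113 genes, and the differences were -0.772 points for distal, -2.005 for TSS and -7.22 for LTR. With a limit of 15 there were 29240 low sites and 1412 genes, and the differences were -1.22 for LINE, with an interval (-1.85 to -0.582) that then left out 0, and -5.19 for LTR. TSS limits of 1 kb and 50 kb gave 116 and 2909 genes and differences of -0.354 and -4.42. Counting any overlap with the repeat gave -6.64 for LTR.

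One alternative was added after the data were seen: using only peaks within 1.1 times the floor of the local background gave 1.23 for distal, with an interval (0.119 to 2.34) that left out 0, -0.689 for TSS, -3.41 for LTR and -0.336 for chromosome X, whose interval (-0.775 to 0.124) then included 0. The other alternatives were a stricter q, other overlap rules and tall sites without a canine factor. Each factor has 1 library, so no replicate could be left out. No paired analysis was possible because every group holds 1 library. The number of reads behind the list is unknown, so what depth limits was not tested.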

Other observations

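The 131 low DUX4 peaks that did overlap a canine peak differed in repeat content from the members. LTRs held 22.1% (15.4 to 30.2) of their summits, and MER21B or MER21C elements, LTRs of the ERVL family, held 16 (12.2%, 7.15 to 19.1). Among the members the same shares were 6.65% and 0.274%. LINEs held 13.0% (7.74 to 19.96) against 28.0% of members. A TSS lay within 5 kb of 16.03% (10.2 to 23.5) and within 1 kb of 7.63% (3.72 to 13.6), against 10.2% and 1.960% of members. Overlaps with both canine factors numbered 7, and 5 of them had a named nearest gene. These were PTCH1, the hedgehog receptor, TMEM126B, an assembly factor of respiratory complex I, PRNP, the prion protein gene, TREH, the enzyme trehalase, and C1orf105. The summits near TMEM126B and C1orf105 lay in MER21C and that near TREH, with a pileup of 8.25, in MER77B, another ERVL element.

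The 3 lowest members had a pileup of 6.42 and a fold enrichment of 3.55. All were 225 bp wide and intergenic. The only named one lay 78334 bp upstream of TMEM72 (canFam3 chr28:2607284-2607508) in an L1MD2 element, and the others were on chromosomes 8 and 37, the former in the DNA transposon Tigger1.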
